A study of Homo sapiens with 8 samples.

Results

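Translation initiation and elongation factors were taken as the genes whose symbol begins with EIF1 to EIF6 or with EEF1 or EEF2. This rule on the name found 70 of the 19475 entries of the expression table. A further 2 names, the readthrough EEF1E1-BLOC1S5 and the antisense EIF3J-AS1, occurred in the m6A peak lists alone, which gave 72 names in all. The names cover the factors themselves and also kinases, binding proteins and methyltransferases named after them. HCT116 cells, an established human colorectal carcinoma line, received PBS (Control) or Fusobacterium nucleatum, a bacterium found in colorectal tumours, for 2 h at 100 bacteria per cell (labelled FUSO). N6-methyladenosine (m6A), a methyl mark on adenosines inside mRNA, was located by sequencing fragments of poly(A) RNA that an m6A antibody bound (IP), alongside unselected input fragments. Each treatment had 2 biological replicates of 1 line, and expression was measured in the 4 input libraries, named Control 1, Control 2, F. nucleatum 1 and F. nucleatum 2.

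Initiation of translation begins when eIF2 carries the initiator tRNA to the small ribosomal subunit, with eIF1, eIF1A, eIF3 and eIF5 helping to choose the start codon. The cap-binding protein eIF4E, the scaffold eIF4G and the helicase eIF4A bring the mRNA, and eIF2B recharges eIF2 with GTP until stress kinases that phosphorylate eIF2 block it. During elongation eEF1A delivers aminoacyl-tRNA, the eEF1B subunits recharge it, and eEF2 moves the ribosome along. Many of these mRNAs are highly expressed in growing cells, and methyl marks are known to gather near stop codons and in long exons, often at the letters GGAC.

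Expression is given in FPKM, which the authors computed by scaling fragments to transcript length and to the total mapped. The absolute depth is unknown. From steps among the lowest values, the input depth of the other libraries was 0.912 to 1.23 times that of Control 1, estimates that rest on 6 to 12 genes a pair. The epithelial markers EPCAM and KRT8 were at 161.8 to 184.1 FPKM and at 1941 to 2286 FPKM. VIL1 was listed at 0 in 3 libraries and at 0.018 FPKM in the other. Of 7 markers of other cell types, CD3E and COL1A2 were listed at 0 in all 4 libraries, and the summed level of the list was 11.7 to 14.8 FPKM, most of it CD68 and COL1A1. Low epithelial markers were CDX2, at 2.73 to 3.73 FPKM, and KRT20, at 1.23 to 1.32 FPKM. At an unadjusted limma p under 0.05, KRT8 and CDX2 were lower in treated cells (log2 fold changes of -0.18 and -0.26) and COL1A1 was higher (0.31), and their part in the results was not tested.

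Translation factors ranked among the more abundant mRNAs of these cells. Of the 70 entries, 65 passed the filter of a mean of at least 1 FPKM and were tested, and their median level was 48.6 FPKM, against 9.45 FPKM for all 11088 tested genes. A mean of 100 FPKM or more was reached by 26 of the 65 (40.0%) and by 5.93% of all tested genes. Together the 70 entries made up 3.07% to 3.25% of the summed FPKM of a library. EIF4E3, EIF4EBP3, EIF2S3B, EIF4E1B and EEF1AKMT4-ECE2 lay under the filter, from a mean of 0.896 FPKM for EIF4E3 down to 0.0312 FPKM for the readthrough EEF1AKMT4-ECE2. EIF4E3, a cap-binding relative of EIF4E, was at 1.45 and 1.10 FPKM in Control cells and 0.482 and 0.556 FPKM in treated cells, with the groups apart. In the fit without a filter, which took in all 70 entries, its log2 fold change was -0.58 ± 0.096 (SE, limma p 0.00254, adjusted p 0.212), and EIF4E1B also had an unadjusted p under 0.05.

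**Figure D1:**
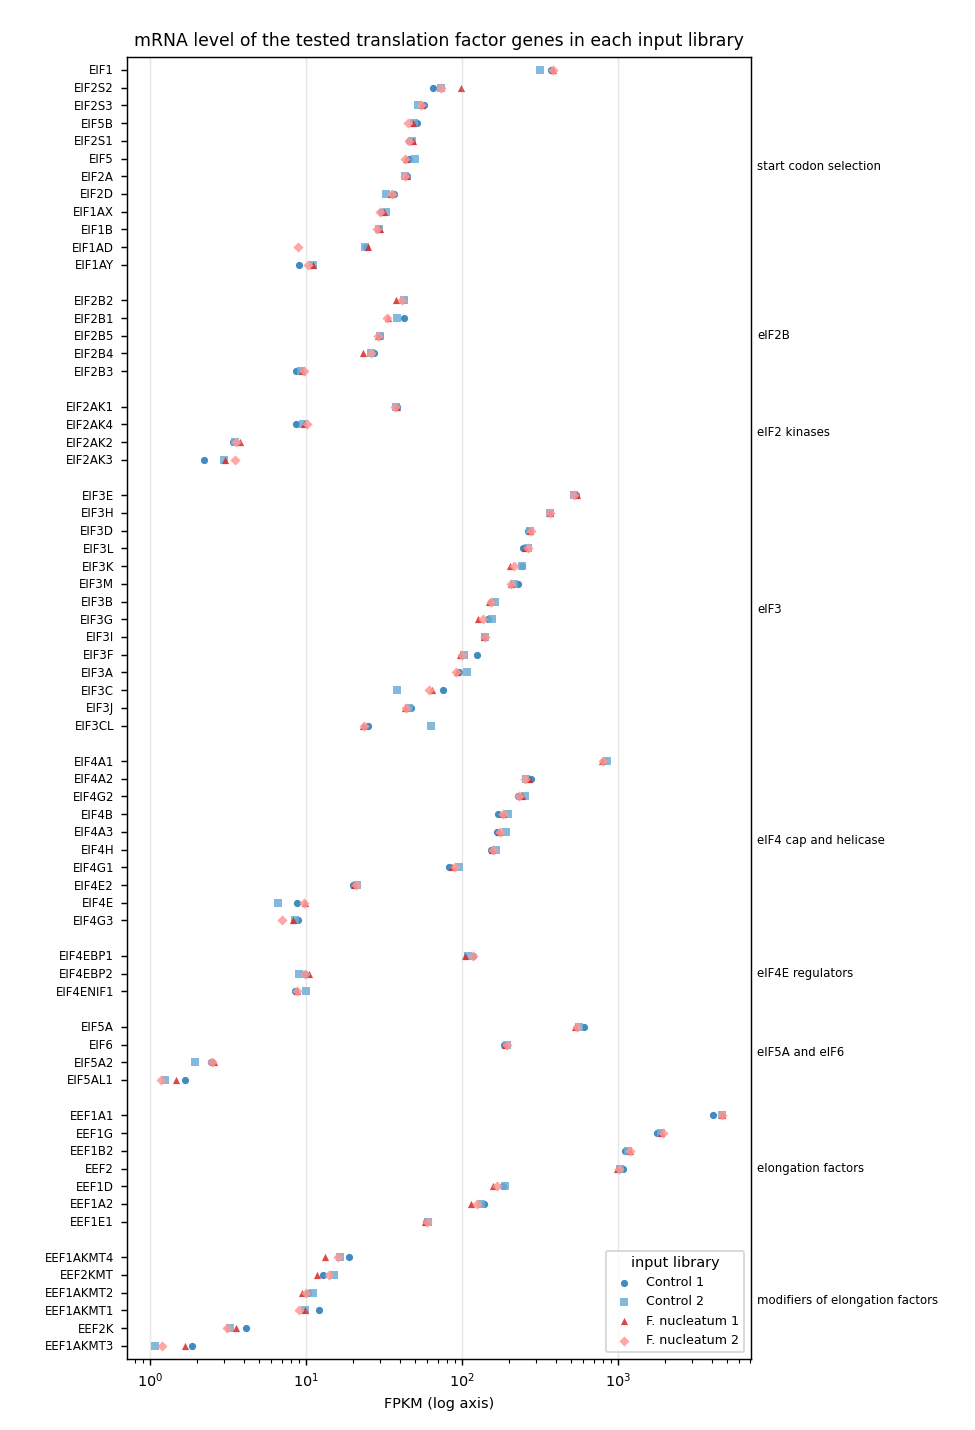
FPKM on a log axis of the 65 tested translation factor genes, 1 row a gene, ordered by mean level within each role, with 1 point for each of the 4 input libraries. For most genes the 4 points nearly coincide, and EIF1AD, EIF2S2, EIF3C and EIF3CL are among the genes where 1 library stands apart.

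The elongation factors headed the order of levels. EEF1A1, the main carrier of aminoacyl-tRNA, stood at 4077 and 4682 FPKM in Control cells and 4676 and 4662 FPKM in treated cells, so that Control 1 was the low library and the groups overlapped. EEF1A1 has many processed pseudogene copies, which may share its reads. Next came EEF1G and EEF1B2, subunits of the eEF1B exchange complex, with means of 1882 and 1168 FPKM, and the translocase EEF2 with 1031 FPKM. They were followed by the helicase EIF4A1 (816 FPKM), EIF5A, which relieves stalls of the ribosome (563 FPKM), and the eIF3 subunits EIF3E and EIF3H (532 and 367 FPKM). The start-codon factor EIF1 (364 FPKM) and the cap-binding eIF3 subunit EIF3D (272 FPKM) completed the 10 most abundant. The cap-binding protein EIF4E itself was at only 8.74 FPKM, near its own regulators EIF4EBP2 (9.81 FPKM) and EIF4ENIF1 (9.03 FPKM) and far under the repressor EIF4EBP1 (113 FPKM). These levels are scaled to transcript length, so genes are compared only roughly. How fragments of near-identical copies were assigned is not given in the sources used here.

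The first comparison asked whether F. nucleatum changed the mRNA of these factors within 2 h. No translation factor passed a limma adjusted p of 0.05, a threshold that 89 of the 11088 tested genes (0.803%) passed. The lowest adjusted p was 0.234, for EIF2B1. In these bulk libraries a change per cell and a change in the mix of cells cannot be told apart. At an unadjusted limma p under 0.05, 5 of the 65 genes (7.69%) were lower and 0 were higher in F. nucleatum-treated cells, beside 6.45% lower and 7.04% higher among all tested genes. The changes were small. For 54 of the 65 genes the log2 fold change was within 0.2 of 0, and for 58 the whole 95% confidence interval lay within 0.5. The median standard error was 0.068 on the log2 scale, against 0.087 for all tested genes.

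The balance of directions leaned to lower values. Both F. nucleatum libraries lay below both Control libraries in 22 of the 65 genes (33.8%, against 21.1% of all tested genes) and above them in 10 (15.4%, against 26.1%), and in the remaining 33 the groups overlapped. The median log2 fold change was -0.02 for the 65 genes and 0.01 for all tested genes, and the middle 50% of the values ran from -0.11 to 0.02 and from -0.08 to 0.11. GC content moved with this order. The 22 lower genes had a median transcript GC content of 51.1% and the 10 higher ones 45.6%, and over all tested genes those figures were 54.4% and 47.1%. With each library corrected for GC content, the median of the 65 genes was -0.03 and that of all tested genes 0.02. After quantile normalization the medians were nearly level, at -0.0082 and -0.0057.

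**Figure D2:**
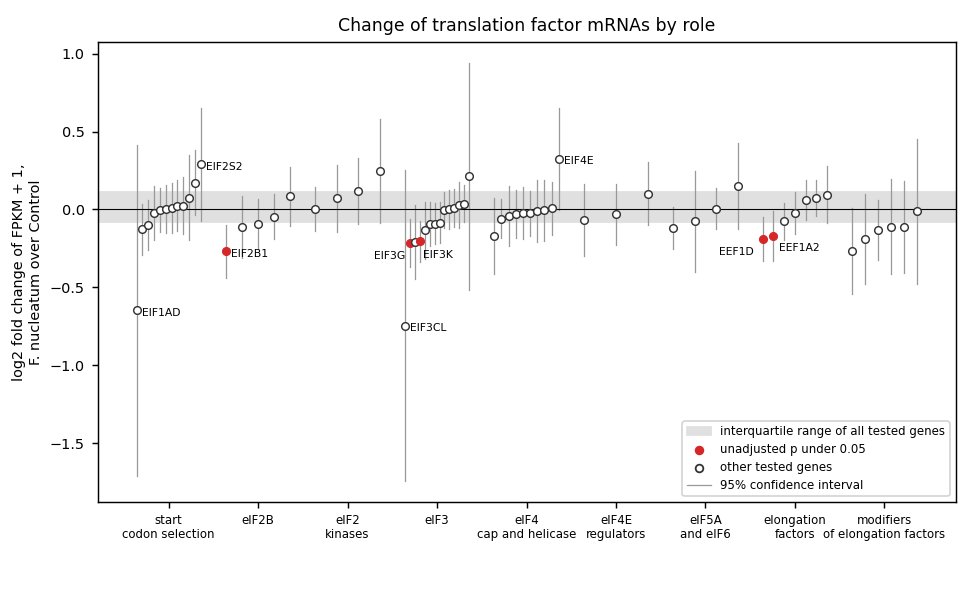
Log2 fold change of FPKM + 1, F. nucleatum over Control, for the 65 tested genes by role, with 95% confidence intervals, where filled points mark an unadjusted limma p under 0.05 and the grey band the interquartile range of all tested genes. The 5 filled points, EIF2B1, EIF3G, EIF3K, EEF1D and EEF1A2, all lie below 0, and the long intervals belong to EIF1AD, EIF3C and EIF3CL.

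Among the 5 subunits of eIF2B, the exchange factor of eIF2, both F. nucleatum libraries were below both Control libraries for EIF2B1, EIF2B2, EIF2B4 and EIF2B5. That order was found in 21.1% of all tested genes. The unadjusted limma p was 0.208 for EIF2B2, 0.203 for EIF2B4 and 0.467 for EIF2B5. EIF2B1, the alpha subunit (chromosome 12, 124104953 to 124118313, minus strand), was at 42.3 and 38.6 FPKM in Control cells and 33.7 and 33.1 FPKM in treated cells. Both treated libraries were lower by more than the gap between the Control libraries. The log2 fold change was -0.27 ± 0.068 (SE, limma p 0.00902, adjusted p 0.234). Across the alternatives that kept every library the adjusted limma p ranged from 0.216 to 0.298. EIF2B3 went the other way, from 8.69 and 9.27 to 9.42 and 9.74 FPKM (log2 fold change 0.08 ± 0.075, adjusted p 0.644 in limma). EIF2B1, EIF2B2, EIF2B4 and EIF2B5 thus each had a value below 0 and EIF2B3 one above 0, with none past the adjusted threshold.

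Of the 4 kinases that phosphorylate eIF2, 3 lay higher in both treated libraries, an order found in 26.1% of all tested genes. EIF2AK2 (PKR, activated by double-stranded RNA), EIF2AK3 (PERK, the kinase of the endoplasmic reticulum) and EIF2AK4 (GCN2, which senses uncharged tRNA) had both F. nucleatum libraries above both Control libraries. The largest difference was that of EIF2AK3, at 2.23 and 3.01 FPKM in Control cells and 3.06 and 3.5 FPKM in treated cells (log2 fold change 0.25 ± 0.133, adjusted p 0.467 in limma). It was 0.09 without Control 1 and 0.40 without Control 2. EIF2AK1 (HRI, the heme-regulated kinase) was level, between 37.5 and 38.6 FPKM in all 4 libraries, with a log2 fold change of 0.00 and a 95% confidence interval from -0.14 to 0.15. Its sign changed with the GC correction and with the library left out. None of the 4 passed an unadjusted p of 0.05.

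The eIF3 complex, the scaffold of the small-subunit initiation machinery, was the largest group with 14 genes. In 8 of them both F. nucleatum libraries were below both Control libraries (21.1% of all tested genes) and in 1, EIF3D, above (26.1%). The 8 include EIF3CL, whose separate value is uncertain, and also EIF3A and EIF3M. EIF3K, a peripheral subunit, stood at 245 and 241 FPKM in Control cells and 205 and 217 FPKM in treated cells. EIF3G, an RNA-binding subunit, stood at 148 and 157 against 127 and 136 FPKM. In both genes the groups were clear of each other, with log2 fold changes of -0.20 ± 0.053 for EIF3K and -0.21 ± 0.062 for EIF3G (SE, limma p 0.00989 and 0.0156, adjusted p 0.239 and 0.277). EIF3F, a further subunit, stood at 125 and 104 against 96.8 and 100 FPKM, with Control 1 the high library (log2 fold change -0.21 ± 0.095, adjusted p 0.411 in limma). Without Control 2 its value was -0.34. The subunits EIF3H, EIF3I and EIF3E varied little: EIF3H lay between 366 and 369 FPKM in all 4 libraries, EIF3I between 139 and 142 FPKM, and EIF3E between 523 and 545 FPKM. EIF3D, which had the only higher order in the complex, moved from 265 and 272 to 274 and 277 FPKM (log2 fold change 0.04 ± 0.048, adjusted p 0.743 in limma).

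EIF3C and EIF3CL, both on chromosome 16 (28699879 to 28747048 on the plus strand and 28390900 to 28415162 on the minus strand), are near-identical copies, and their canonical coding sequences differed by 3 nt in an alignment of 2739 and 2742 nt. EIF3C was at 75.8 and 38.7 FPKM in Control cells and 64.7 and 61.3 FPKM in treated cells. EIF3CL was at 25 and 63.8 FPKM in Control cells and 23.4 and 23.6 FPKM in treated cells. Control 2 stood apart in both genes and in opposite directions. EIF3CL took 62.3% of the pair's summed FPKM there and 24.8% to 27.8% in the other libraries. How the fragments of such copies were assigned is not given in the sources used here, so the separate values are uncertain.

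The sum of the pair was steady within groups, at 100.8 and 102.5 FPKM in Control cells and 88.1 and 84.9 FPKM in treated cells. Both treated libraries were lower, with means of 101.7 ± 1.21 and 86.5 ± 2.26 FPKM (SD, n = 2) and a ratio of 0.851. The two-sided exact permutation p was 0.333, the smallest that 2 libraries against 2 allow. The separate log2 fold changes of 0.21 ± 0.292 for EIF3C and -0.75 ± 0.40 for EIF3CL (SE, limma adjusted p 0.767 and 0.467) rested on Control 2. Without it they were -0.26 and -0.09, and without Control 1 they were 0.69 for EIF3C and -1.40 for EIF3CL, in opposite directions.

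Of the 12 tested genes of start codon selection, initiator tRNA delivery and subunit joining, 2 lay lower (EIF5 and EIF5B) and 1 higher (EIF1) in both F. nucleatum libraries. Those orders were found in 21.1% and 26.1% of all tested genes. EIF2S2, the beta subunit of eIF2, had the largest positive value, at 65.7 and 73.5 FPKM in Control cells and 98.8 and 73.5 FPKM in treated cells. Only F. nucleatum 1 was high, and the other treated library met the upper Control library (log2 fold change 0.29 ± 0.145, adjusted p 0.440 in limma; 0.08 without F. nucleatum 1). RALY lies across EIF2S2 on the other strand, and it is not given here whether fragments were assigned by strand.

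EIF1AD, a nuclear protein with an eIF1A-like domain, had the most negative value of this group. It was at 24.4 and 23.9 FPKM in Control, 25.1 FPKM in F. nucleatum 1 and 8.89 FPKM in F. nucleatum 2. The single low library set the log2 fold change at -0.65 ± 0.426 (SE, adjusted p 0.531 in limma). The value was 0.05 without F. nucleatum 2 and -1.35 without F. nucleatum 1.

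In the eIF4 group, cap-binding EIF4E had the largest positive value of the 65 genes with all 4 libraries in the fit. It stood at 8.79 and 6.59 FPKM in Control cells and 9.90 and 9.69 FPKM in treated cells. Both treated libraries were above both Control libraries, which were themselves further apart (log2 fold change 0.32 ± 0.131, limma p 0.0511, adjusted p 0.374). The value was 0.51 without Control 1 and 0.14 without Control 2, where EIF2AK3 (0.40) and EIF2S2 (0.37) lay above it. The scaffold EIF4G3 gave the lowest value of the group, from 8.96 and 8.54 to 8.33 and 7.04 FPKM (log2 fold change -0.17 ± 0.098, adjusted p 0.486 in limma). The major helicase EIF4A1 moved from 812 and 854 to 794 and 805 FPKM (log2 fold change -0.06 ± 0.049), with the treated libraries below both Control libraries. The main scaffold EIF4G1 lay between 83.3 and 95.5 FPKM with overlapping groups. The eIF4E regulators were as level, with log2 fold changes from -0.07 for EIF4ENIF1, the shuttling binder of eIF4E, to 0.10 for the repressor EIF4EBP2.

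Among the 7 genes grouped here with the elongation factors, EEF1D, a subunit of eEF1B, stood at 185 and 189 FPKM in Control cells and 158 and 169 FPKM in treated cells. EEF1A2, the tissue-restricted relative of EEF1A1, stood at 138 and 132 against 115 and 125 FPKM. Both genes had both treated libraries below both Control libraries, although the treated libraries of EEF1A2 lay further apart than its groups. The log2 fold changes were -0.19 ± 0.056 for EEF1D and -0.17 ± 0.064 for EEF1A2 (SE, limma p 0.0168 and 0.0398, adjusted p 0.282 and 0.353). Both transcripts are GC-rich, at 64.6%, and after the GC correction their unadjusted limma p was 0.0814 and 0.0934, whereas EIF2B1, EIF3K and EIF3G kept values of 0.00706, 0.00793 and 0.0365. EEF2 moved from 1079 and 1038 to 996 and 1012 FPKM (log2 fold change -0.08 ± 0.047). EEF1B2, at 1118 and 1160 against 1196 and 1197 FPKM, was the elongation factor with both treated libraries higher (log2 fold change 0.07 ± 0.046).

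EIF5A was at 605 and 567 FPKM in Control cells and 534 and 545 FPKM in treated cells (log2 fold change -0.12 ± 0.053, adjusted p 0.401 in limma). Its coding sequence is 98.9% identical to that of EIF5AL1, listed at 1.19 to 1.67 FPKM, and the low values of this copy are uncertain for that reason. EIF5A2, a paralog with 72.3% identity to EIF5A over the coding sequence, was at 2.46 and 1.95 against 2.59 and 2.51 FPKM (log2 fold change 0.15 ± 0.111). EIF6, which keeps the large ribosomal subunit from joining too early, stayed between 186 and 195 FPKM. Of the 6 genes that modify elongation factors, the methyltransferase EEF1AKMT4 had the lowest value, from 19.0 and 16.7 to 13.4 and 16 FPKM (log2 fold change -0.27 ± 0.110, limma p 0.056, adjusted p 0.380). EEF1AKMT3 gave the highest of the 6, at -0.01 ± 0.187, and its sign changed with the library left out.

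The second comparison asked whether F. nucleatum changed where these mRNAs carried m6A peaks. The translation factor names held 77 and 84 peaks in the Control lists and 84 and 80 peaks in the F. nucleatum lists, which was 0.448% to 0.470% of all peaks of a list. The means were 80.5 ± 4.95 and 82.0 ± 2.83 peaks (SD, n = 2). The difference of 1.5 peaks was smaller than either SD (exact permutation p of 1). Merging peaks that shared at least 1 bp on the same strand gave 96 regions in 56 of the 72 names, of 22001 regions in all. A peak was present in all 4 lists for 60 of the 96 regions (62.5%, against 51.5% of all regions) and in 1 list for 16 (16.7%, against 25.6%). These single-list regions were short, with a median of 61.5 nt. The tested translation factor genes had a median level of 48.6 FPKM, against 9.45 FPKM for all tested genes. The shares by number of lists were not matched for level, and its part in them was not tested.

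The regions with the lowest listed p-values lay in the mRNAs of abundant factors and were present in all 4 lists. A listed p of 0, too small for the number format, occurred in at least 1 list for 6 regions, so the 5 lowest could not be separated and all 6 are described. EEF1A1 carried its region in the 3′UTR (chr6:74227199-74227615, minus strand, 417 nt) and EEF2 likewise (chr19:3976054-3976650, minus strand, 597 nt), each at 0 in every list. EIF4G1 (chr3:184049593-184053116, plus strand, 748 nt in 3 exon blocks) and EIF4A2 (chr3:186505295-186507445, plus strand, 691 nt in 3 blocks) had theirs at the stop codon. In EIF3A, the largest eIF3 subunit, the region ran through the coding sequence (chr10:120795216-120817740, minus strand, 2780 nt in 11 blocks) and held 18 GGAC motifs. The EIF5A region (chr17:7210407-7211372, plus strand, 329 nt in 3 blocks) lay in exons of the gene and off its canonical transcript. Coordinates are on GRCh37 (hg19), 1-based.

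The sequence around the GGAC nearest the middle of each of these 6 regions is shown 5′ to 3′ on the mRNA strand to let the bases around the motif be compared, as 30 nt or, inside the coding sequence of EIF3A, 60 nt, with every GGAC in capitals.
EEF1A1 3′UTR (chr6:74227358-74227387): gagaatgttttgtGGACcactttggttttc
EEF2 3′UTR (chr19:3976312-3976341): gccctcttagtagGGACttaatgggccggt
EIF4G1 3′UTR side of the stop codon (chr3:184052716-184052745): cctggagccccatGGACacacagatggccc
EIF4A2 3′UTR side of the stop codon (chr3:186507367-186507396): ataatatacttgtGGACtaaaagatataag
EIF3A coding sequence (chr10:120801899-120801958): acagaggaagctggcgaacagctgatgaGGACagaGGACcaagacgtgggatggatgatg
EIF5A (chr17:7211028-7211057): gctcgcggcgagcGGACggggtcgagtcag
The windows of EIF4G1 and EIF4A2 lie in the 3′UTR, and their labels give no distance from the stop codon. The bases around the motif differed widely, from a window GC content of 23.3% in EIF4A2 to 76.7% in EIF5A. Over the 96 regions, 70 (72.9%) held a GGAC on the transcribed strand, and the share over all regions was 72.8%. In the middle 100 nt of regions of at least 100 nt, which sets the length equal, the motif occurred in 39 of 82 translation factor regions (47.6%) and in 42.4% of 18838 regions.

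Between the groups, 2 of the 96 regions (2.08%) had a peak in both Control lists and in neither F. nucleatum list, against 2.64% of all regions, and 2 (2.08%) the reverse, against 2.38%. The translation factor shares were thus near those of all regions. The clearest was in EIF4A3, a helicase of the exon junction complex, where a region over the 5′UTR and the start of the coding sequence (chr17:78120683-78120952, minus strand, 270 nt, GC content 69.3%) had listed p-values of 7.9e-33 in Control 1 and 3.2e-18 in Control 2. No peak was listed there in either F. nucleatum library. EIF4A3 mRNA was at 168 and 192 FPKM in Control cells and 172 and 177 FPKM in treated cells, so the treated libraries lay inside the range of the Control libraries. F. nucleatum 2 listed a separate 61-nt peak in its 3′UTR (p 0.00072).

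The other region found in the Control lists alone was in the coding sequence of EIF4G3 (chr1:21188816-21191138, minus strand, 180 nt in 2 blocks), with weaker p-values of 1.7e-05 and 2.8e-06. EIF4G3 kept regions with a peak in all 4 lists in its coding sequence and 3′UTR. The regions found in the F. nucleatum lists alone were weak as well. That of EIF2S3, the gamma subunit of eIF2, lay in the 3′UTR (chrX:24095494-24095583, plus strand, 90 nt) at 0.001 and 0.00095, and EIF2S3 had a stop codon region in all 4 lists. The other, named after EIF4EBP3 and the readthrough ANKHD1-EIF4EBP3 (chr5:139928661-139929019, plus strand, 202 nt in 2 blocks), had p-values of 0.00069 and 0.00052, with its midpoint 99 nt past the stop codon of the readthrough. EIF4EBP3 itself was listed at 0.965 and 0.0439 FPKM in Control cells and 0.385 and 0.107 FPKM in treated cells.

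The middle of these 4 regions is shown in the same way, because they were listed in both lists of 1 treatment and in neither of the other, again with GGAC in capitals.
EIF4A3 5′UTR into coding sequence, Control lists only (chr17:78120756-78120785): tgtgctcttccgcGGACtctgaatcatggc
EIF4G3 coding sequence, Control lists only (chr1:21190969-21191028): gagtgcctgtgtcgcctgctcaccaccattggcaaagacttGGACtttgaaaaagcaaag
EIF4EBP3 3′UTR, F. nucleatum lists only (chr5:139928825-139928854): cacaatttgaaatGGACatctaatccagtg
EIF2S3 3′UTR, F. nucleatum lists only (chrX:24095524-24095553): tttgctgtagcacacacatatatcactgaa
The EIF2S3 region held no GGAC, and its window is the middle of the region. The other 3 regions held 1 each. A match to these letters is a description of the sequence and does not locate a methylated base. The lists give no value where no peak was called, so a missing peak sets no upper limit on methylation. With peaks filtered at a listed p of 1e-05, the EIF4A3 region alone remained among those in the Control lists only and 0 remained in the F. nucleatum lists only. Over all 13480 regions at that filter, 349 and 303 were so listed.

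Of the 56 names with a peak, 26 had exactly 1 region. EIF4G3 had the most, 5, followed by EIF2AK4 and EEF2K, the kinase that inhibits eEF2, with 4 each. Of the 4 EIF2AK4 regions, 1 in the 3′UTR was in all 4 lists, and 2 in the coding sequence were in 3 lists. Its list totals were 2 and 4 peaks in Control and 4 and 3 peaks in F. nucleatum, with overlapping groups. EIF3C and EIF3CL shared a coding region found in all 4 lists, and Control 2 had 2 further shared regions with p-values of 1.2e-05 and 6.8e-05. Control 2 is also the library in which the FPKM of the pair was split differently. Peaks on these copies cannot be given to one gene.

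The position of regions on mRNAs was then examined. On canonical protein-coding transcripts 77 of the 96 regions could be placed. Within 100 nt of the stop codon lay 20 (26.0%, against 15.9% of 18213 placed regions), while 32 lay in the coding sequence (41.6%, against 44.9%), 21 in the 3′UTR (27.3%, against 34.2%) and 4 in the 5′UTR (5.19%, against 5.00%). Among the 49 placed regions found in all 4 lists, 17 (34.7%) were at the stop codon, against 19.4% of all such regions. They included EIF2S2, EIF2S3 and EIF5B of the start codon group, EIF2B2, EIF2AK1, EIF3H, the eIF4 genes EIF4A1, EIF4A2, EIF4B and EIF4G1, the regulators EIF4EBP1 and EIF4ENIF1, and the methyltransferases EEF1AKMT1, EEF1AKMT2 and EEF1AKMT4. A further 1 of the 17 is named after the readthrough EEF1E1-BLOC1S5 and was placed on a transcript of BLOC1S5, which is no translation factor. Without it the count was 16 of 48 (33.3%). The merged EIF4EBP1 region of 859 nt was longer than its canonical transcript of 827 nt. Its midpoint therefore does not place a peak at the stop codon. The tested translation factor genes with a peak had a median 3′UTR of 843 nt and a median transcript of 2687 nt. For all tested genes with a peak these medians were 1369.5 and 3457.5 nt. A fixed window of 100 nt to each side of the stop codon covers more of a shorter mRNA, and its part in these shares was not tested. Translation factor regions in all 4 lists were shorter than others, with a median of 421 nt against 595 nt, and had a GC content of 46.1% against 50.3%. EIF1 was the only gene with a placed 5′UTR region in all 4 lists (148 nt, GC content 73.6%).

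**Figure D3:**
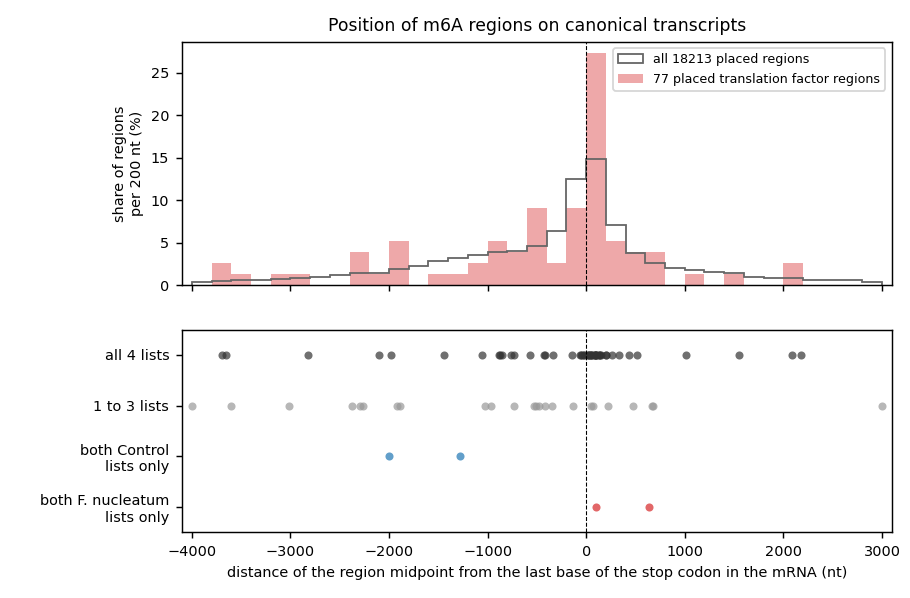
Distance of region midpoints from the stop codon along the canonical mRNA, as the share of regions per 200 nt for the 77 placed translation factor regions and all 18213 placed regions (top) and as 1 point a region by the lists it was found in (bottom; 1 region beyond each end is drawn at the edge). Regions in all 4 lists crowd around the stop codon, and of the regions in both lists of 1 treatment and neither of the other, the 2 of Control lie before it and the 2 of F. nucleatum after it.

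A peak was listed for 53 of the 65 tested genes (81.5%, against 83.9% of all tested genes). The 12 without one were EEF1B2, EIF2AK2, EIF2B3, EIF2D, EIF3D, EIF3F, EIF3G, EIF3K, EIF3M, EIF4H, EIF5A2 and EIF5AL1. They include 5 of the 14 eIF3 genes, and EIF3G and EIF3K among them were 2 of the 5 genes with an unadjusted p under 0.05. The mean levels of the 12 ran from 1.40 FPKM for EIF5AL1 to 1168 FPKM for EEF1B2. Of the 26 genes at 100 FPKM or more, 7 had no peak (26.9%), against 32.2% of the 658 tested genes at that level. The 12 had a median transcript length of 2287 nt and a median longest exon of 1205 nt, and the 53 with a peak had 2687 nt and 1022 nt. For all tested genes the longest exon was 829 nt without and 1759 nt with a peak. Genes of the cytosolic ribosome, which are expressed together with these factors, had a peak in 30 of 78 cases (38.5%), and their median log2 fold change was 0.00.

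The genes that work beside these factors were taken from 6 lists with 52 genes, of which 49 were tested. At an adjusted p under 0.05 in limma, 1 gene was called (0.803% of all tested genes), and at an unadjusted p under 0.05, 6 were higher and 3 lower (7.04% and 6.45% of all tested genes). The called gene was PPP1R15A (GADD34), the phosphatase subunit that reverses eIF2 phosphorylation and a target of the integrated stress response. It stood at 52.1 and 55.5 FPKM in Control cells and 81.3 and 84.2 FPKM in treated cells, with the groups far apart relative to their SDs of 2.34 and 2.02 FPKM. The log2 fold change was 0.61 ± 0.060 (SE, adjusted p 0.0194 in limma). The call was lost without the filter on low values (adjusted p 0.0528 in limma) and without the variance trend (0.0541), with the log2 fold change at 0.61 in both. Without F. nucleatum 1 the log2 fold change was 0.64, and without F. nucleatum 2 it was 0.59. The call was not kept in either of these fits, each with 1 treated library.

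The list of 11 integrated stress response genes downstream of eIF2 had 10 tested genes, of which 4 were higher at an unadjusted p under 0.05 (7.04% of all tested genes) and 0 lower. Beside PPP1R15A these were the asparagine synthetase ASNS (78.0 and 72.5 against 91.1 and 84.0 FPKM), SESN2 (2.89 and 3.32 against 3.75 and 3.92 FPKM) and DDIT4, an inhibitor of mTOR signalling (27.5 and 25.7 against 33.0 and 39.4 FPKM). The transcription factor ATF4 moved from 351 and 349 to 368 and 379 FPKM (log2 fold change 0.09 ± 0.047, adjusted p 0.440 in limma). The median log2 fold change of the list was 0.23, beside 0.01 for all tested genes. In the other 5 lists 0 genes were called. The genes with the lowest unadjusted p, 1 from each list, were the ribosome rescue factor PELO (log2 fold change 0.28), PAIP2B, which binds poly(A)-binding protein (0.31), the eIF4A inhibitor PDCD4 (0.20), the kinase MTOR (-0.21) and the diphthamide enzyme DPH2 (-0.20). ABCE1, the recycling factor in the list of PELO, was also lower at an unadjusted limma p of 0.0325 (log2 fold change -0.17).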

How the data were processed

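The authors trimmed adapters, aligned reads to hg19 with HISAT2 2.1.0 and computed the deposited FPKM with StringTie from the input libraries, per the labels and the methods of the study. Each of the 4 deposited lists, 1 a replicate, gave a single score for a peak, which was taken for the authors' uncorrected p-value. The methods name MACS2 with a Fisher test, whereas the exon-block layout is one that exomePeak writes, so the program used is unsettled. The lists give no fold enrichment.

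Here, the 11088 genes whose mean reached 1 FPKM were fitted on log2(FPKM + 1) by limma 3.58.1 under R 4.3.3 (lmFit, eBayes with trend, no covariate), with Benjamini-Hochberg adjustment over all of them. Changes of low genes are understated on this scale. The count model of the study's methods was not usable on FPKM. Peaks were merged into regions by at least 1 bp of shared exon blocks, and placed on 19553 canonical transcripts of GENCODE release 44 mapped to GRCh37 where at least 90% of a region lay on the transcript, with the midpoint deciding the class. Sequences were read from GRCh37. EIF3J-AS1 was not matched to that annotation. Single values per library were compared by two-sided exact permutation tests, whose smallest p is 0.333 with 2 against 2.

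Named genes were those with an adjusted or unadjusted p under 0.05, a region private to a treatment, a level among the 10 highest, the largest or smallest change in a role, no peak, or 1 of the 5 strongest shared regions, with near-identical copies, and per list of partners the called gene or that with the lowest p. Values of EIF2AK4, EEF2K, ASNS, SESN2, DDIT4 and ATF4 and of genes named for their steady level were chosen after they were seen. The members and lists were chosen with earlier results of these data known. The fit and the merging were tested on simulated data.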

Additional observations from a re-analysis of the deposited data

How the results depend on the processing

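With n = 2 per group, FPKM without counts and peak lists without values at uncalled sites, small changes in these genes could not be resolved, and IP depth was unknown. No gene passed the adjusted threshold in limma under another pseudocount, no filter, no trend, quantile normalization, GC correction or the replicate block. With 1 library left out the count was 0 to 3, where EIF1, EIF3C and EIF3CL (without Control 1), EEF1A1 and EIF3F (without Control 2) or EIF1AD (without F. nucleatum 1) passed. The 5 genes at an unadjusted p under 0.05 became 3 after GC correction and 1 to 16 with a library left out: 11 without Control 1 (3 higher, 8 lower), 16 without Control 2 (4 higher, 12 lower) and 1 without F. nucleatum 1. Over all 11088 genes 1584 (14.3%) and 2341 (21.1%) passed without Control 1 and without Control 2. After GC correction 1488 of the 10688 genes in that fit (13.9%) had an unadjusted limma p under 0.05. A fit with a library left out has 1 library in a group, so no conclusion is drawn from the genes passing there. The median log2 fold change of the 65 genes was -0.0082 after quantile normalization, -0.034 after GC correction and -0.0402 to -0.0176 with a library left out.

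At a listed p of at most 1e-05, 1 of 78 regions was private to the Control lists and 0 to the F. nucleatum lists. Over all 13480 regions at that filter these counts were 349 and 303. With a reciprocal overlap of 50% they were 3 and 3 of 115, beside 811 and 822 of all 31041. With a list left out they were 2 to 7 and 4 to 7 of 91 to 94, as fewer lists had to meet the rule. Over all 20918 to 21295 regions the counts with a list left out were 945 to 2403 and 917 to 2403. The difference in peaks per list ran from -2 without Control 1 and -0.50 without F. nucleatum 1 to 5.00 without Control 2.

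Among the single genes, 20 values changed sign. EIF2AK1 was at -0.0052 and EIF3E at -0.0137 after GC correction, and EIF3H at 0.0136 after quantile normalization. In a setting chosen after seeing the data, EIF3C was at -0.23 when summed with EIF3CL. With a library left out the ranges were -0.0041 to 0.196 for EEF1A1, -0.244 to 0.218 for EEF1AKMT3, -1.35 to 0.0539 for EIF1AD, -0.0172 to 0.0239 for EIF2AK1, -0.0369 to 0.0855 for EIF2S3, -0.264 to 0.689 for EIF3C, -0.0161 to 0.0401 for EIF3E, -0.0066 to 0.0008 for EIF3H, -0.14 to 0.0555 for EIF4A3, -0.166 to 0.0303 for EIF4ENIF1 and -0.201 to 0.0474 for EIF5AL1. The cause was not tested.

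The replicate numbers shared by the groups were treated as labels, and the labels do not say whether same-numbered libraries were paired. The deviations of same-numbered libraries correlated at 0.0243, which cannot settle whether they were. With the replicate block the limma fit again called 0 genes, 6 genes had an unadjusted p under 0.05, against 5, and the median was -0.0231. It changed no call.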
